A study of Mus musculus with 9 samples.

Results

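The transcripts of 8 genes of the phagocyte NADPH oxidase and of related redox enzymes were followed in microglia sorted from mouse brain. The genes were taken by symbol and were Cybb, Cyba, Ncf1, Ncf4, Rac1, Rac2, Hvcn1 and Nos2, which are 8 of the 23238 symbols counted. The filter on low counts left 12292 genes for testing, 7 of the 8 genes among them, and Nos2 stayed under it. All mice were wild-type adult female C57BL/6N mice, and the cells were sorted at 1 day as positive for CD45, CD11b and P2ry12. Normal mice had no treatment. NMO mice had an injection of patient IgG against aquaporin-4 with human complement into the striatum, which gives astrocyte lesions like those of neuromyelitis optica. NMO+CL mice had the same injection and, before it, clodronate liposomes into the peritoneum, which kill phagocytic monocytes and macrophages. Each group had 3 libraries and each library was a pool of 3 mice. No library of control IgG, or of empty liposomes, was analysed here. The effect of the antibody and that of the injection therefore cannot be told apart, nor that of clodronate and that of the liposomes.

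The phagocyte NADPH oxidase makes superoxide by passing electrons from NADPH in the cytosol to oxygen on the far side of a membrane. Its membrane core is a dimer of Cybb (gp91phox), which carries the electrons, and Cyba (p22phox), which stabilises Cybb and holds the docking site for the cytosolic subunits. On activation the organiser Ncf1 (p47phox), Ncf4 (p40phox), which binds a membrane lipid, and other cytosolic subunits move to this core together with the small GTPase Rac2 or Rac1. The voltage-gated proton channel Hvcn1 lets protons follow the electrons, which keeps the enzyme running. Nos2 (iNOS) makes nitric oxide from arginine and is widely read as a sign of the state of macrophages.

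Total counts ran from 5788234 to 7837219 per library, and levels are given as CPM, counts relative to the scaled library size. Counts come from the 3′ ends of transcripts and are not given per length, so levels were compared between groups for each gene and not between genes. Fold changes are on the log2 scale, with standard errors (SE), 95% intervals and p-values from edgeR's quasi-likelihood test, adjusted by Benjamini and Hochberg over all 12292 genes. Calls were made at an adjusted p under 0.05. All 10 microglia markers were found in each library, with summed levels of 34170 to 38815 CPM in Normal, 29414 to 34234 in NMO and 19906 to 27559 in NMO+CL. Of these markers 7 were called lower between NMO+CL and Normal (9.23% of all tested genes were called). Between NMO+CL and NMO 4 were called lower (1.59% of all), and between NMO and Normal 1 (0.496%). P2ry12, on which the cells were sorted, was at 2608, 2055 and 2665 CPM in Normal, 1756, 1558 and 1630 in NMO, and 449, 266 and 344 in NMO+CL. Its log2 fold change was -2.79 between NMO+CL and Normal (adjusted p = 4.62e-07), and that of Gpr34, another microglial receptor, was -2.90 (adjusted p = 7.18e-07). The part of these markers in the results below was not tested. The second NMO library had 0 counts of Cbr2, a border macrophage gene at 125 to 395 CPM in the other libraries, so values without it are given where they matter. Nothing in the labels names a batch. In sorted bulk cells, a larger share of cells that express a gene and more RNA of it per cell cannot be told apart.

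Upstream sequences are shown for the 3 genes of the 8 that had an entry in the RefSeq promoter table, which were Cybb, Cyba and Ncf1. Each is the 250 bases before the RefSeq transcription start on GRCm38.p6, 5′ to 3′ on the gene's strand, which is the minus strand for all 3. Cybb lies at chrX:9469325-9469574, Cyba at chr8:122432941-122433190 and Ncf1 at chr5:134229626-134229875. The RefSeq start of Cybb lies inside the longer gene that GENCODE gives. Capitals mark matches, on either strand, to the core of interferon response elements, in which the letters GAAA occur at 2 places with any 2 bases between them. They also mark the GC box, which has the letters GGGCGG, and the CCAAT box, read by those letters.
Cybb: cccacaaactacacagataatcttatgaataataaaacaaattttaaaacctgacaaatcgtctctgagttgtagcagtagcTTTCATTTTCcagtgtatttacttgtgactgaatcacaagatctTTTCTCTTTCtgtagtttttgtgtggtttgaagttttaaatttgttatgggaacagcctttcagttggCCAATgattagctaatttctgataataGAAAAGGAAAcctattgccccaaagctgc
Cyba: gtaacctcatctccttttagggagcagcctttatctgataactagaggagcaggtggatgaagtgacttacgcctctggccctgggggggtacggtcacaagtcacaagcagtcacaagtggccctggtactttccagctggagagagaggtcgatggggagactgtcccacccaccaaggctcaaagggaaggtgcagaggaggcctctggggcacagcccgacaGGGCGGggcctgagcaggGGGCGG
Ncf1: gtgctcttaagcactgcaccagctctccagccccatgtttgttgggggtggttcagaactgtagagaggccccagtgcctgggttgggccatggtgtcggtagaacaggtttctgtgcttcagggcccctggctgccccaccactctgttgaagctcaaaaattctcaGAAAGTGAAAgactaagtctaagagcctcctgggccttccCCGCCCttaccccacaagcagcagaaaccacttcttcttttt
The Cybb sequence held the interferon response core at 3 places, 168, 124 and 29 bases before the start, and a CCAAT box 56 bases before it. The Ncf1 sequence held the core at 1 place, 82 bases before the start, and Cyba had no match to it. Of 32851 mouse promoters of 300 bases, 250 before and 50 after the start, 3.443% had at least 1 match to the core, and 5 promoters (0.01522%) had 3 or more. The GC box, held by 35.66% of promoters, was found at 2 places in Cyba, 24 and 6 bases before the start, and at 1 in Ncf1, 42 bases before it, and not in Cybb. A CCAAT box was held by 37.41% of promoters. The sequence GAGGAA, bound by PU.1 and other ETS factors and held by 28.28% of promoters, was found in Cybb 10 bases after the start. No TATAA was found in the 3 windows, against 24.87% of promoters with a match. GC content was 34% for Cybb, 60% for Cyba and 54.4% for Ncf1. These are matches of letters and no measure of binding, and no link between them and the levels below was tested.

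Cybb, the catalytic subunit, was the 1 gene of the 8 whose difference passed the test, and it did so in NMO+CL against Normal. Its gene lies on X:9435252-9487771, minus strand (GENCODE M21, GRCm38). In Normal the 3 libraries had 9.72, 2.41 and 7.91 CPM, from 61, 16 and 47 counts. In NMO they had 41.4, 15.2 and 5.60 CPM, from 329, 127 and 35 counts. In NMO+CL they had 82.1, 77.1 and 60.4 CPM, from 563, 476 and 377 counts. All 3 NMO+CL libraries were thus above all 6 others, while the third NMO library lay inside the Normal range and the other two NMO libraries above it.

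The Cybb mean was 6.68 ± 3.81 CPM over the Normal libraries, 20.7 ± 18.5 over NMO and 73.2 ± 11.4 over NMO+CL (SD, n = 3). Cybb rose 11.0-fold in NMO+CL against Normal (95% interval 4.62 to 26.0), a log2 fold change of 3.46 (SE 0.59) with an adjusted p of 0.00120. In this comparison 9.23% of all tested genes were called. The call held under all 18 alternative settings, with log2 fold changes of 3.05 to 3.84 and adjusted p-values up to 0.00871, those without any 1 of the 9 libraries among them. The exact two-sided permutation test of the CPM gave p = 0.1, the smallest that 3 against 3 libraries allow.

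The step from Normal to NMO was 1.64 for Cybb on the log2 scale (SE 0.57, 95% interval 0.45 to 2.83, adjusted p = 0.298), and the step from NMO to NMO+CL was 1.81 (SE 0.54, 95% interval 0.67 to 2.96, adjusted p = 0.123). Neither passed the test. Without the filter on low counts the first step was called (1.65, adjusted p = 0.00209). These comparisons share the NMO libraries, so their values are not independent. The first step rested largely on the first NMO library, without which it was 0.63, and it was 2.07 without the third. The second step had no overlap between the groups. It was called under 5 of the 18 alternative settings, among them those without the first NMO library (2.83, adjusted p = 0.0242), without the filter on low counts (adjusted p = 8.51e-05), by DESeq2 (adjusted p = 0.0292) and by limma-voom (adjusted p = 0.0101), and was not called under 13, with adjusted p-values up to 0.294. Without the second NMO library the steps were 1.82 and 1.63.

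Within groups, Cybb varied more than most genes of its level. Its pooled within-group SD was 1.01 on the log2 scale, beside a median of 0.51 over 2135 genes of similar level. The corresponding SD was 0.16 for Cyba, 0.13 for Ncf1, 0.23 for Ncf4, 0.15 for Rac1, 0.21 for Rac2 and 0.38 for Hvcn1. Beside genes of their own level, Cyba, Ncf1, Ncf4, Rac1 and Rac2 varied less than the median. Hvcn1, like Cybb, varied more (0.38 beside a median of 0.30). The 95% intervals of the log2 fold changes of these 6 genes in NMO+CL against Normal reached no further than -1.30 and 0.83.

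**Figure D1:**
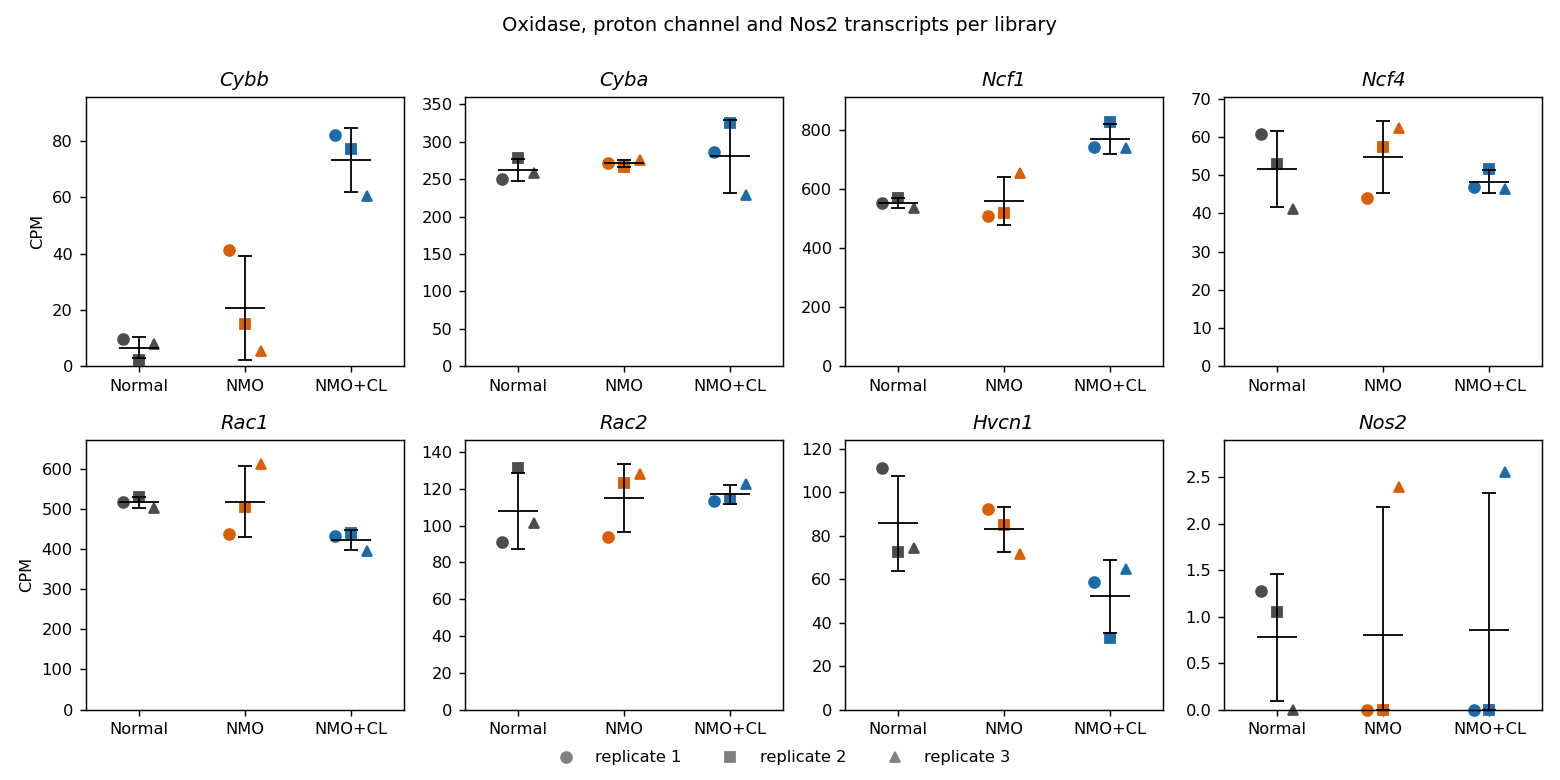
Level of each of the 8 genes in CPM (vertical axes from 0, a scale of its own for each gene) in the 3 libraries of Normal, NMO and NMO+CL, with points shaped by replicate number, long marks at the group means and whiskers of 1 SD that are cut at 0. Cybb lies at 60.4 to 82.1 CPM in NMO+CL and at 41.4 CPM or less in the other libraries, while Cyba, Ncf4 and Rac2 overlap between all groups and Nos2 includes libraries at 0.

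Cyba, the membrane partner of Cybb (8:122424776-122432930, minus strand), had nearly the same level throughout. It was at 250, 279 and 259 CPM in Normal, 272, 266 and 275 in NMO, and 287, 325 and 229 in NMO+CL. The groups overlapped in every comparison. Its log2 fold change in NMO+CL against Normal was 0.096 (95% interval -0.28 to 0.48, adjusted p = 0.850), an interval that holds no change beyond 1.39-fold in either direction.

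Because Cyba was level, the counts of Cybb as a percent of those of Cyba in the same library repeat the pattern without any scaling of library sizes. The ratio was 3.90%, 0.864% and 3.06% in Normal. It was 15.2%, 5.71% and 2.04% in NMO, and 28.7%, 23.7% and 26.3% in NMO+CL. The NMO+CL libraries lay close together and above all others, while the NMO libraries spread from inside the Normal range to 15.2%. The mean log2 ratio differed by 3.57 between NMO+CL and Normal and by 2.21 between NMO+CL and NMO, each with an exact two-sided permutation p of 0.1, the smallest possible. The difference between NMO and Normal was 1.35 (exact permutation p = 0.4), and it was 0.70 without the second Normal library, 0.64 without the first NMO library and 2.08 without the third. The difference between NMO+CL and NMO was 2.93 without the first NMO library and 1.49 without the third.

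**Figure D2:**
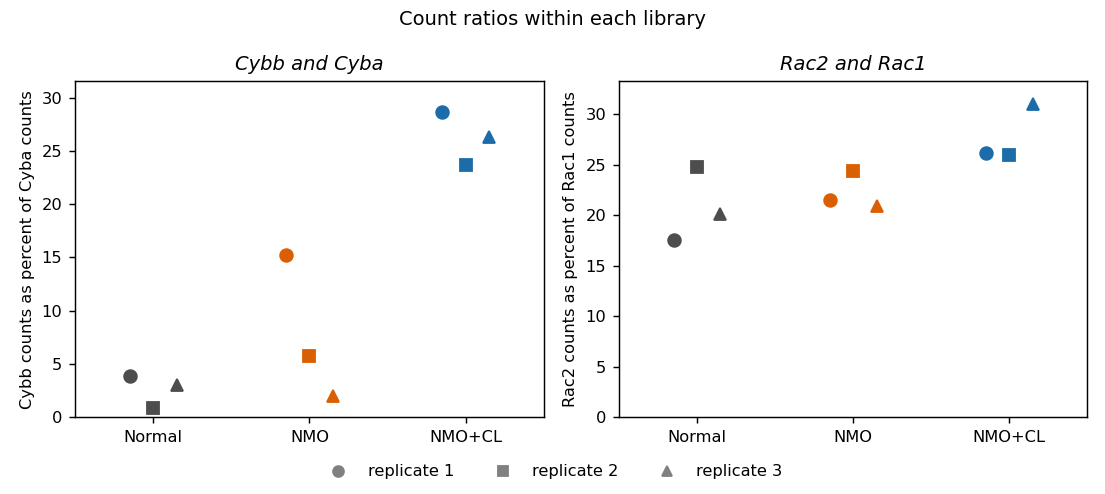
Counts of Cybb as a percent of Cyba counts (left) and of Rac2 as a percent of Rac1 counts (right) in each library of Normal, NMO and NMO+CL, vertical axes from 0, with points shaped by replicate number. The Cybb ratio is 23.7% to 28.7% in NMO+CL and at most 15.2% elsewhere, and the Rac2 ratio is 26.0% to 31.0% in NMO+CL and at most 24.8% elsewhere.

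Ncf1, the organiser subunit (5:134220053-134229625, minus strand), was higher in every NMO+CL library than in the other 6, by a modest step that did not pass the test. It was at 552, 570 and 536 CPM in Normal, 509, 521 and 655 in NMO, and 744, 829 and 739 in NMO+CL. The means were 553 ± 16.9, 562 ± 81.2 and 771 ± 50.5 CPM (SD, n = 3). NMO and Normal overlapped and differed by 0.023 on the log2 scale. NMO+CL differed from Normal by 0.48 (SE 0.16, 95% interval 0.13 to 0.83, adjusted p = 0.0814) and from NMO by 0.46 (SE 0.16, 95% interval 0.11 to 0.80, adjusted p = 0.217). DESeq2 called both differences (adjusted p = 0.0139 and 0.0359), and limma-voom called the first (adjusted p = 0.0457). Ncf1 transcripts share a stretch of 115 bases with Gtf2ird2 at 100% identity, and reads with several alignments were counted. Gtf2ird2 itself was at 25.4, 25.7 and 30.2 CPM on average in the 3 groups.

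Ncf4, the lipid-binding subunit (15:78244801-78262580, plus strand), overlapped between all groups. It was at 60.7, 53.0 and 41.1 CPM in Normal, 44.1, 57.5 and 62.4 in NMO, and 46.8, 51.7 and 46.3 in NMO+CL. Its log2 fold change was 0.083 in NMO against Normal. With NMO+CL it was -0.18 against NMO and -0.096 against Normal (95% interval -0.63 to 0.44).

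The GTPases differed little. Rac2, the form made by blood cells and microglia (15:78559167-78572783, minus strand), was at 91.1, 131 and 101 CPM in Normal, 93.9, 123 and 128 in NMO, and 113, 115 and 123 in NMO+CL, and the groups overlapped. Its log2 fold change in NMO+CL against Normal was 0.12 (95% interval -0.33 to 0.56, adjusted p = 0.843). Rac1, the form found in most cells (5:143503634-143528036, minus strand), was at 518, 530 and 503 CPM in Normal, 437, 505 and 612 in NMO, and 433, 441 and 395 in NMO+CL. All NMO+CL libraries were below all Normal ones, with a log2 fold change of -0.29 (SE 0.17, 95% interval -0.65 to 0.07, adjusted p = 0.360). The exons of Daglb overlap the 3′ end of Rac1 on the other strand, and whether counting used strand was not stated. Daglb had log2 fold changes of -0.092, -0.071 and -0.16 in the 3 comparisons.

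Rac2 counts were 17.6%, 24.8% and 20.1% of Rac1 counts in Normal, 21.5%, 24.4% and 20.9% in NMO, and 26.2%, 26.0% and 31.0% in NMO+CL. The ratio was therefore higher in each NMO+CL library than in the other 6. The difference of the mean log2 ratio was 0.42 against Normal and 0.32 against NMO, each with an exact two-sided permutation p of 0.1, the smallest possible, and 0.11 between NMO and Normal (exact permutation p = 0.5). The last was -0.0064 without the first Normal library.

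Hvcn1, the proton channel (5:122206804-122242297, plus strand), had its lowest levels in NMO+CL. It was at 111, 72.2 and 74.0 CPM in Normal, 92.3, 84.6 and 71.4 in NMO, and 58.5, 32.9 and 64.5 in NMO+CL. All NMO+CL libraries lay below all others, and Normal and NMO overlapped. The log2 fold change was -0.72 against Normal (SE 0.27, 95% interval -1.30 to -0.14, adjusted p = 0.117) and -0.67 against NMO (SE 0.27, 95% interval -1.25 to -0.09, adjusted p = 0.302), and neither was called under any of the 18 alternative settings. Exons of Tctn1 lie on the other strand at the 3′ end of Hvcn1. Tctn1 had log2 fold changes of -0.69 and -0.96 in the same comparisons, at 7.60 to 14.8 CPM on average, also uncalled (adjusted p = 0.471 and 0.446).

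**Figure D3:**
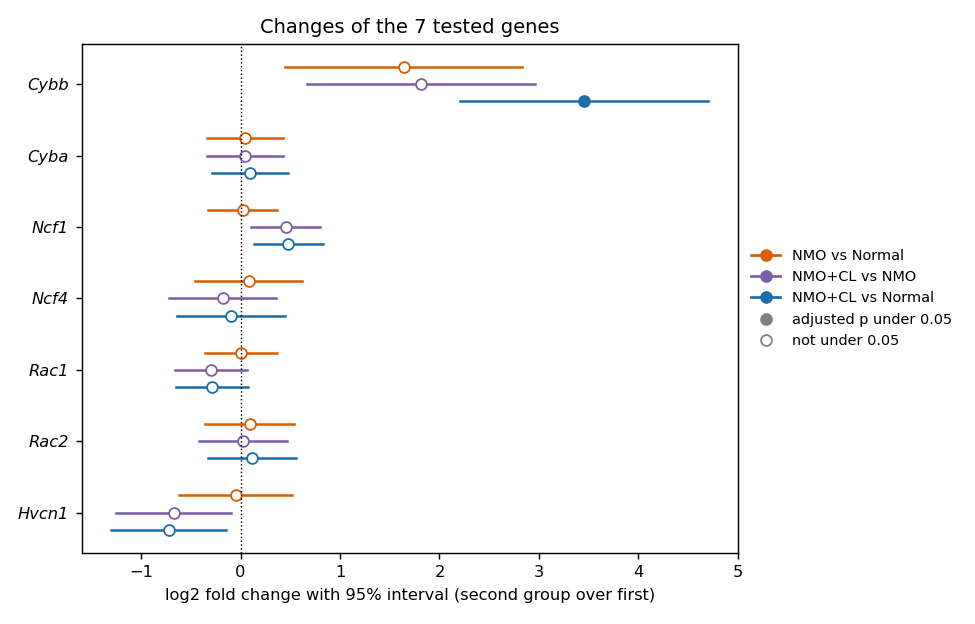
Log2 fold changes of the 7 tested genes with 95% intervals (horizontal axis) in the 3 comparisons, where filled points mark an adjusted p under 0.05. Only the point of Cybb for NMO+CL vs Normal, at 3.46, is filled, the intervals of Cyba, Ncf4, Rac1 and Rac2 include 0 throughout, and those of Cybb are the widest.

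Nos2 was at the edge of detection. Nos2 (11:78920787-78960254, plus strand) had 8, 7 and 0 counts in Normal, 0, 0 and 15 in NMO, and 0, 0 and 16 in NMO+CL, or 46 counts in all. In a library with 0 counts, as many as 3 are compatible with that at 95%, for counting error alone. Libraries with counts and libraries without stood side by side in each group, and the exact two-sided permutation test of the CPM gave p = 1 in all 3 comparisons. With so few counts and this spread between libraries of a group, the values do not decide whether Nos2 differed.

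Counted over the 8 genes, 0 were called in NMO against Normal, where 0.496% of all tested genes were. In NMO+CL, 0 were called against NMO (1.59% of all) and 1 against Normal (9.23%). At an unadjusted p under 0.05 the edgeR test had 1, 3 and 3 of the 7 tested, beside 9.51%, 12.4% and 22.3% of all tested genes. DESeq2 called 0, 2 and 2 of the 7, beside 1.86%, 3.94% and 12.8% of all genes with an adjusted p. With limma-voom 0, 1 and 2 were called, beside 0.35%, 1.49% and 8.79% of all. The libraries of the groups did not overlap for 0, 3 and 4 of the 7, beside 17.4%, 17.1% and 28.7% of all tested genes. The medians of the 7 log2 fold changes were 0.048, 0.023 and 0.096, beside -0.012 to -0.0050 over all tested genes. Counts over so few genes rest on single members, and the calls by the 3 tools were those of Cybb and Ncf1.

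Markers of other cell types were read beside Cybb in the same libraries. The summed level of 13 neutrophil markers was 101 to 603 CPM in Normal, 170 to 502 in NMO and 319 to 1446 in NMO+CL. Of 12 tested neutrophil markers, 9 had a positive log2 fold change in NMO against Normal (median 0.31). In NMO+CL 11 did against NMO (median 0.86) and 11 against Normal (median 1.02). None of the 12 was called in any comparison by edgeR or DESeq2, and limma-voom called 3 in NMO+CL against Normal (8.79% of all tested genes). At an unadjusted p under 0.05 edgeR had 0, 2 and 4 of the 12, beside 9.51%, 12.4% and 22.3% of all tested genes. Most of the neutrophil sum was S100a8 and S100a9, with means of 281 and 315 CPM in NMO+CL, where the mean sum was 781. In Normal their means were 72.0 and 77.1 CPM, where the mean sum was 277. The sum of 10 monocyte markers ran from 42.4 to 70.6 CPM in Normal, 41.1 to 94.9 in NMO and 55.2 to 84.8 in NMO+CL. None of the 10 was called in any comparison by edgeR, DESeq2 or limma-voom, with 0, 0 and 2 at an unadjusted p under 0.05, and their median log2 fold changes were 0.75, 0.16 and 0.29. The 2, beside 22.3% of all tested genes, were Chil3 and F13a1 in NMO+CL against Normal. Their log2 fold changes were 2.22 (adjusted p = 0.143) and 2.46 (adjusted p = 0.212). In that comparison 6 of the 10 had a positive log2 fold change and 4 a negative one. Among the latter, mean Ccr2 was 13.4 CPM in Normal and 5.60 in NMO+CL, and mean Vcan 6.06 and 2.02. Ly6c2 was at 0 to 5.60 CPM over the 9 libraries and Ccr2 at 1.78 to 19.6. The sum of 6 border macrophage markers was 160 to 308 CPM in Normal, 8.62 to 187 in NMO and 214 to 408 in NMO+CL. Most of that sum was Cbr2, with means of 200, 105 and 276 CPM in the 3 groups. The other 5 markers summed to 20.02 to 35.5 CPM in Normal, 8.62 to 28.3 in NMO and 12.8 to 29.2 in NMO+CL, and 0 of the 5 tested border macrophage markers were called by edgeR, DESeq2 or limma-voom (0 at an unadjusted p under 0.05). The part of these cells in the Cybb level was not tested.

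**Figure D4:**
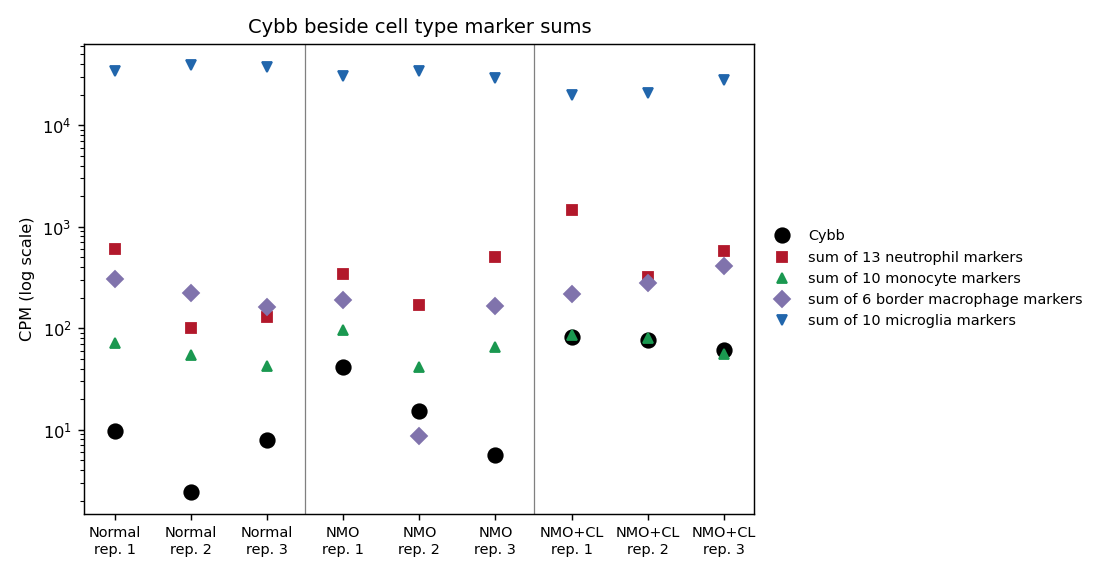
Level of Cybb and summed levels of neutrophil, monocyte, border macrophage and microglia markers in each of the 9 libraries, in CPM on a log axis, with vertical lines between the groups. Cybb is at 60.4 to 82.1 CPM in the 3 NMO+CL libraries, where the neutrophil sum is 319 to 1446 CPM, and at 2.41 to 9.72 CPM in the 3 Normal libraries, where that sum is 101 to 603 CPM.

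The genes whose log2 levels over the 9 libraries most resembled those of Cybb, among the 8840 genes whose mean count reached 50, were Fcgr4, Gpr65 and Ehd1. Fcgr4 is an activating Fc receptor for IgG, Gpr65 a proton-sensing receptor and Ehd1 a protein of endosome recycling. Their root mean square differences from Cybb were 0.56, 0.62 and 0.68, where Cybb itself varied by 1.69 about its mean. Fcgr4 was at 11.6 ± 5.91, 41.9 ± 26.8 and 189 ± 40.6 CPM in the 3 groups, in the order Normal, NMO, NMO+CL (SD, n = 3). Gpr65 was at 16.2 ± 3.95, 45.4 ± 16.6 and 234 ± 88.8 CPM, and Ehd1 at 3.38 ± 1.52, 13.3 ± 8.31 and 49.1 ± 23.7 CPM. The genes most like Ncf1 were Scaf8, Wnk1 and Zfp106 (0.09 to 0.11), and those most like Hvcn1 were Glrp1, Wls and Msi2 (0.18 to 0.19). For Cyba, Ncf4, Rac1 and Rac2, which varied by 0.13 to 0.20 about their means, the nearest genes were Ptpn6 (0.10), Gnai2 (0.10), Plekha2 (0.08) and Dlgap4 (0.10).

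The chaperone of the Cybb and Cyba dimer is known as Cybc1 or Eros, and the count tables hold it under its older symbol BC017643, a pairing of names that rests on general knowledge. BC017643 was at 144, 146 and 157 CPM in Normal, 203, 216 and 241 in NMO, and 239, 227 and 205 in NMO+CL. All 6 injected libraries were above all Normal ones. BC017643 rose by 0.58 on the log2 scale in NMO+CL against Normal (SE 0.18, adjusted p = 0.0479), and its difference of 0.56 in NMO against Normal did not pass the test (adjusted p = 0.231). The call was near the threshold and held under 8 of 18 alternative settings. It was lost without any 1 of 7 libraries, these being all of Normal, the first and second NMO and the first and second NMO+CL libraries, with adjusted p-values of 0.0558 to 0.152. The tables held 9 other symbols of the list of subunits, those of the relatives of the enzyme (Nox1, Nox3, Nox4, the Duox genes and their partners). Of these 4 were tested, and 0 were called by edgeR, DESeq2 or limma-voom or had an unadjusted p under 0.05.

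Genes that act on the oxidase were counted in the same way. The 28 tested regulators were a mixed list and not activators alone. It held kinases and exchange factors, and also other proteins such as Arhgdia, Arhgdib, Clic1 and Clcn3. Of the 28, 0 were called in NMO against Normal (1 at an unadjusted p under 0.05, and 0 by DESeq2 and limma-voom). In NMO+CL 2 were lower against NMO (1.59% of all tested genes were called) and 3 against Normal (9.23%). DESeq2 called 2 and 5 in these comparisons, and limma-voom 3 and 4. Pik3cg, the lipid kinase PI3K gamma, was at 180, 149 and 159 CPM in Normal, 142, 124 and 214 in NMO, and 83.9, 82.8 and 70.8 in NMO+CL. Pik3cg fell by 1.04 on the log2 scale in NMO+CL against Normal (SE 0.22, adjusted p = 0.00624), a call that held under all 18 settings. Against NMO its log2 fold change was -1.01 (SE 0.22, adjusted p = 0.0262), and this call held under 11 of 18 settings and was lost without Normal replicates 2 or 3, NMO replicates 1 or 3, or NMO+CL replicates 2 or 3 (adjusted p = 0.0503 to 0.124).

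Prex1, an exchange factor that loads Rac2 with GTP, was at 250, 200 and 205 CPM in Normal, 315, 272 and 281 in NMO, and 212, 84.6 and 88.2 in NMO+CL. Prex1 had a log2 fold change of -1.17 in NMO+CL against NMO (SE 0.28, adjusted p = 0.0444), and the call held under 8 of 18 settings and was lost without any 1 library other than NMO+CL replicate 1 (adjusted p = 0.0566 to 0.227). Against Normal its log2 fold change was -0.77 (adjusted p = 0.104) and it was called under 4 of 18 settings, among them without NMO+CL replicate 1, at -1.34 (adjusted p = 8.38e-04), without the filter on low counts (adjusted p = 0.00959) and by limma-voom (adjusted p = 0.0326). Among the protein kinases C that phosphorylate Ncf1, those lower in NMO+CL against Normal were Prkcd, with a log2 fold change of -0.90 (SE 0.22, adjusted p = 0.0161), and Prkca, with -0.95 (SE 0.27, adjusted p = 0.0327). Another such kinase, Prkcb, was at 367, 376 and 420 CPM in Normal, 384, 486 and 377 in NMO, and 528, 537 and 525 in NMO+CL, above all other libraries, with uncalled log2 fold changes of 0.45 against Normal (adjusted p = 0.113) and 0.35 against NMO (adjusted p = 0.414). The Prkcd call was lost without Normal replicate 3, NMO+CL replicate 2 or NMO+CL replicate 3 (adjusted p = 0.0529 to 0.0909). The Prkca call held under 13 of 18 settings. It was lost with library totals alone (adjusted p = 0.0513) and without Normal replicates 2 or 3 or NMO+CL replicates 1 or 2 (adjusted p = 0.115 to 0.151). The medians over the 28 regulators were 0.061, -0.098 and -0.21 in the 3 comparisons.

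Around Nos2, 12 of 16 genes of arginine and nitric oxide metabolism were tested. In NMO against Normal, 2 were higher and none lower (0.496% of all tested genes were called), in NMO+CL 0 were called against NMO (3 at an unadjusted p under 0.05, and 0 by DESeq2 and limma-voom), and 2 were higher and 2 lower against Normal (9.23% of all). Slc7a1, the cationic amino acid transporter that imports arginine, was at 22.6, 26.9 and 10.3 CPM in Normal, 70.7, 78.3 and 54.9 in NMO, and 98.2, 109 and 124 in NMO+CL, with no overlap between any of the groups. Slc7a1 rose 3.40-fold in NMO against Normal (adjusted p = 0.0110) and 5.53-fold in NMO+CL against Normal (adjusted p = 9.25e-05).

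Srm, spermidine synthase, was at 25.7, 30.2 and 37.7 CPM in Normal, 75.8, 102 and 69.0 in NMO, and 105, 139 and 90.8 in NMO+CL. It rose 2.64-fold in NMO against Normal (adjusted p = 0.0164) and 3.58-fold in NMO+CL against Normal (adjusted p = 2.30e-04). The calls of both genes against Normal in NMO+CL held under all 18 settings. In NMO against Normal they held under 14 each, and were lost for Slc7a1 without Normal replicates 1 or 3 or NMO replicate 1 (adjusted p = 0.0521 to 0.0570) or with only the 2 groups compared (adjusted p = 0.0507) and for Srm without Normal replicates 1 or 2 or NMO replicates 1 or 2 (adjusted p = 0.0521 to 0.109).

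The lower genes were Ddah2, which breaks down an inhibitor of nitric oxide synthases, and Pts, an enzyme that makes their cofactor tetrahydrobiopterin. Ddah2 was at 40.0, 64.0 and 46.9 CPM in Normal, 31.4, 31.5 and 33.0 in NMO, and 10.7, 13.9 and 28.3 in NMO+CL. It fell by 1.51 on the log2 scale in NMO+CL against Normal (SE 0.36, adjusted p = 0.0125), a call lost without Normal replicate 2 (adjusted p = 0.0809) or NMO+CL replicate 2 (adjusted p = 0.0656). Pts was at 17.5, 14.4 and 22.9 CPM in Normal, 18.0, 19.2 and 15.1 in NMO, and 4.38, 7.45 and 6.56 in NMO+CL. It fell by 1.57 in NMO+CL against Normal (SE 0.45, adjusted p = 0.0349), a call that held under 7 of 18 settings and was lost without any 1 library other than NMO replicates 2 and 3 (adjusted p = 0.0561 to 0.167).

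Among 27 tested antioxidant genes, which remove superoxide, peroxides and their products, 0 were called in NMO against Normal (3 at an unadjusted p under 0.05, and 0 by DESeq2 and limma-voom), and in NMO+CL 1 was higher against NMO (1.59% of all tested genes were called) and 4 against Normal (9.23%), with none lower. DESeq2 called 1 and 5 in these comparisons, and limma-voom 2 and 5. The medians of their log2 fold changes were 0.16, 0.24 and 0.35. Ucp2, a mitochondrial carrier that lowers superoxide output, was at 54.3, 55.1 and 75.2 CPM in Normal, 75.6, 65.1 and 71.4 in NMO, and 105, 174 and 133 in NMO+CL. Ucp2 rose 2.23-fold in NMO+CL against Normal (adjusted p = 0.00425), a call that held under all 18 settings. It rose 1.94-fold against NMO (adjusted p = 0.0484), which held under 7 of 18 settings and was lost without any 1 library other than NMO+CL replicate 1 (adjusted p = 0.0598 to 0.288).

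The other 3 antioxidant genes that were higher in NMO+CL against Normal were Txnrd1, Prdx1 and Txn2. Txnrd1, thioredoxin reductase, was at 40.8, 33.7 and 19.4 CPM in Normal, 63.4, 47.3 and 72.7 in NMO, and 92.7, 77.9 and 57.5 in NMO+CL. It rose 2.43-fold in NMO+CL against Normal (adjusted p = 0.0116), a call lost without Normal replicate 3 (adjusted p = 0.0713). Prdx1, a peroxiredoxin, rose 1.83-fold (adjusted p = 0.0236), which was lost without Normal replicates 2 or 3 or NMO+CL replicates 1 or 2 (adjusted p = 0.0665 to 0.122). Txn2, the mitochondrial thioredoxin, rose 1.99-fold (adjusted p = 0.0422), which was lost without any 1 of the Normal libraries, NMO replicate 1 or NMO+CL replicates 2 or 3 (adjusted p = 0.0589 to 0.173). Their relatives on the list were not called, with log2 fold changes in that comparison of 0.012 for Txn1, 0.83 for Txnrd2 (adjusted p = 0.261), 0.21 for Prdx2, -0.26 for Prdx3, -0.39 for Prdx4, 0.35 for Prdx5 and 0.75 for Prdx6.

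The superoxide dismutases Sod1 and Sod2 had log2 fold changes of -0.40 (adjusted p = 0.372) and 0.86 (adjusted p = 0.118) in NMO+CL against Normal, and Sod2 was called without NMO+CL replicate 3, at 1.09 (adjusted p = 0.0474). Gpx1, a glutathione peroxidase, had 0.60 with an adjusted p of 0.0744, and was called under 3 of 18 settings, which were DESeq2 (adjusted p = 0.0227), limma-voom (adjusted p = 0.0465) and no filter on low counts (adjusted p = 0.0421). Hmox1, heme oxygenase, varied widely, with 4.96, 17.0 and 52.2 CPM in NMO+CL, and had 1.32 (95% interval -0.21 to 2.86, adjusted p = 0.315), which was 0.15 without NMO+CL replicate 3 and up to 1.81 without any 1 other library.

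Of 8 tested genes that supply NADPH, the fuel of the oxidase, 1 was called in NMO+CL against Normal (9.23% of all tested genes) and 0 in each other comparison (1 at an unadjusted p under 0.05 in each of those, and 0 by DESeq2 and limma-voom). The called gene was Pgd, which makes NADPH in the pentose phosphate pathway. Pgd was at 119, 103 and 138 CPM in Normal, 162, 163 and 199 in NMO, and 237, 262 and 267 in NMO+CL, so that the 3 groups did not overlap. It rose 2.12-fold in NMO+CL against Normal (95% interval 1.61 to 2.81, adjusted p = 0.00142), a call that held under all 18 settings.

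**Figure D5:**
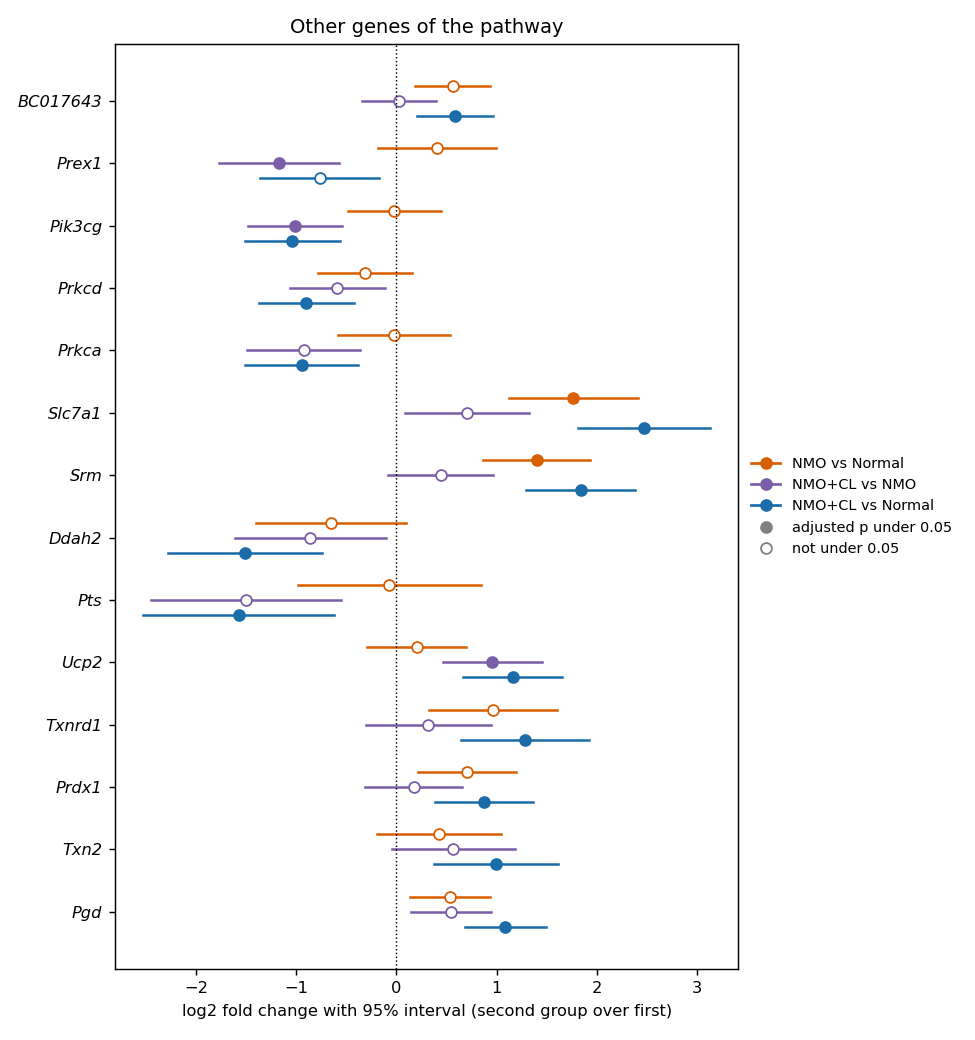
Log2 fold changes with 95% intervals (horizontal axis) of 14 other genes of the pathway in the 3 comparisons, where filled points mark an adjusted p under 0.05. The genes are the Cybb chaperone BC017643, 4 regulators, 4 genes of arginine and nitric oxide metabolism, 4 antioxidant genes and Pgd, and Slc7a1 and Srm are the genes with filled points in NMO vs Normal.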

How the data were processed

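QuantSeq 3′ libraries were read in 9 libraries of sorted microglia, 3 per group. Per the labels, the authors aligned reads to mm10 with Bowtie2 and counted them per gene with bedtools, with unique and multiple alignments, and the deposited values are raw read counts. The annotation and the use of strand were not given in the sources used here. The 35 symbols on several entries were summed, which gave 23238.

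The tests used edgeR 4.0.16 under R 4.3.3. filterByExpr (minimum count 10, total 15) left 12292 genes. Sizes were scaled by TMM, and a quasi-likelihood model with a coefficient for each group took in all 9 libraries. Tests were two-sided, adjusted by Benjamini and Hochberg. The script was tested on simulated data. DESeq2 1.42.0, limma 3.58.1 (voom), other scalings and filters, a replicate block, only the 2 groups compared, Rn45s left out and each library left out were the 18 alternatives. Libraries of a group differed by more than counting error (chi-square per degree of freedom 23.2 to 55.5), and the common biological coefficient of variation was 0.519. Rn45s took 16.0% to 31.0% of counts. Counts came from PCR products with no molecular identifiers used here, so floors cover counting error only.

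The 8 genes, the lists and the tests were chosen with earlier results of these data known. Genes were named by rule: all 8, every list gene called in any comparison (at most 6 a list), 6 named antioxidant genes, and for each tested member the 3 genes with the smallest root mean square difference in centred log2 CPM (prior count 2). Prkcb, Txn1, Txnrd2, Prdx2 to Prdx6 and the marker genes given by name fall outside this rule and were chosen after their values were seen. Coordinates are from GENCODE M21 (GRCm38, which is mm10), which held 22197 of the symbols. Ratios used a pseudocount of 0.5. The replicate numbers pair no samples, as correlations between same-numbered libraries ran from -0.0148 to 0.0302. Another gene chosen with the 8 and 2 genes of the lists are not reported here.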

Additional observations from a re-analysis of the deposited data

How the results depend on the processing

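Over 25 named genes, 3 comparisons and 18 alternatives, 1350 log2 fold changes were recomputed. Of these 1209 kept their direction and their side of the threshold, 78 no longer passed it, 19 newly passed it and 44 changed sign. The sign changes fell on 15 gene comparisons, none of them called, with log2 fold changes up to 0.13 in size. The cause of the changes in count below was not tested. In NMO against Normal, where 61 genes were called, the counts were 96 with library totals alone, 223 without a filter, 224 with DESeq2, 34 with only the 2 groups compared and 20 to 75 with a library left out. In NMO+CL against NMO, with 196, they were 496 without a filter, 465 with DESeq2, 73 with only the 2 groups and 51 to 231 with a library left out. In NMO+CL against Normal, with 1134, they were 649 to 1263 with a library left out. Of the 8 genes, the number called became 1 without a filter in NMO against Normal. In NMO+CL against NMO it became 1 without a filter, 2 with DESeq2, 1 with limma-voom and 0 to 1 with a library left out, and in NMO+CL against Normal 2 with DESeq2 and 2 with limma-voom. The log2 ratio of Rac2 to Rac1 in NMO against Normal ran from -0.0064 to 0.24 with a library left out.

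Signs changed in NMO against Normal for Ncf1 (-0.0037 with a mean count of 50 or more) and for Rac1 (-0.019 with RLE factors, -0.025 with a mean count of 50 or more, -0.019 with DESeq2, -0.019 with limma-voom, -0.0046 with Rn45s left out and -0.00018 with only the 2 groups compared). With library totals alone they changed for Hvcn1 (0.073), Pik3cg (0.081), Prkca (0.069) and Pts (0.030) in NMO against Normal and for Rac2 (-0.025) and BC017643 (-0.022) in NMO+CL against NMO. With a library left out, the ranges that include a change of sign are these. In NMO against Normal they were -0.12 to 0.073 for Ncf1, -0.073 to 0.21 for Ncf4, -0.15 to 0.095 for Rac1, -0.024 to 0.26 for Rac2, -0.16 to 0.17 for Hvcn1, -0.30 to 0.13 for Pik3cg, -0.18 to 0.074 for Prkca, -0.21 to 0.10 for Pts, -0.39 to 0.42 for Hmox1. In NMO+CL against NMO they were -0.073 to 0.17 for Cyba, -0.083 to 0.12 for Rac2, -0.028 to 0.11 for BC017643, -0.32 to 0.037 for Sod1. In NMO+CL against Normal they were -0.023 to 0.22 for Cyba and -0.24 to 0.041 for Ncf4.

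The replicate number as a block gave 1 call among the 8 genes in NMO+CL against NMO, that of Cybb (2.11, adjusted p = 0.0349), against 0 without it. It took away the calls of Ucp2 in that comparison (adjusted p = 0.0708) and of BC017643 and Pts in NMO+CL against Normal (adjusted p = 0.0675 and 0.0537), added that of Prex1 there (adjusted p = 0.0273) and changed the sign of Rac1 in NMO against Normal (-0.0036). Same-numbered libraries did not deviate together and the labels tie them to no shared day, so the samples share only a number. Nos2 had 46 counts in all and spread widely between libraries of a group, from 0 to 15 counts in NMO and from 0 to 16 in NMO+CL.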
